A study of Mus musculus with 28 samples.

Results

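The genes described here are those that license and start DNA replication. They were listed by symbol as *Mcm2*, *Mcm3*, *Mcm4*, *Mcm5*, *Mcm6*, *Mcm7*, *Mcm10*, *Cdc6*, *Cdt1*, and *Pcna*, and all 10 were found among the 15384 genes with a value in each RNA-seq library. Each was matched to 1 gene identifier.

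Before a cell copies its genome, the origin recognition complex, CDC6, and CDT1 load a ring of MCM2 to MCM7 onto DNA, a step called licensing. In S phase this ring becomes the replicative helicase, which MCM10 helps to activate, and PCNA is the sliding clamp that holds DNA polymerases on the template. Most of these genes are transcribed late in G1 phase and are known targets of E2F transcription factors. Mouse embryonic stem cells cycle fast with a short G1 phase and are known for high levels of MCM proteins.

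All libraries used here come from mouse ES cells (mESCs) of the E14 line, cultured with serum and leukaemia inhibitory factor. FACT is a histone chaperone made of SSRP1 and SUPT16. The control libraries come from cells given a scrambled shRNA vector and the *Ssrp1* KD libraries from cells given a pool of shRNAs 1 and 2 against *Ssrp1*, with 4 libraries in each group. Both groups were put under puromycin (2 μg/ml) 48 h after transfection and were collected 24 h later. ERCC spike-in RNA was added to these 8 libraries. The methods call them biological replicates, and the p-values below measure the spread between these libraries. Beside them, 2 libraries of chromatin RNA and 1 peak list each for SSRP1 and SUPT16, all from E14 cells, were used. The peak lists and the chromatin RNA come from cells without a knock-down label.

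The deposited signal per library is the number of reads on a gene multiplied by 1 factor for that library. It is given both relative to library size and relative to spike-in RNA. Summed over all genes, the library-size signal was 825584 to 909417 in control and 1137293 to 1182584 in KD, so it does not equalise totals. A scaling to equal totals by 1 factor per library was not made. It would lower every library-size fold change below and could take away the smallest rises, such as that of *Mcm4*. Quantile normalisation, used further below, gives each library the same distribution and so also equal totals. The reads recovered on all genes were 4602278 to 6680919 in the control libraries and 9433193 to 19856032 in the KD libraries, so counting error is larger in the control libraries. The 10 genes had between 377 and 16562 reads in a library. The targeted gene, *Ssrp1*, had library-size signals of 261, 229.8, 223, and 226 in control replicates 1 to 4 and of 24.1, 26.4, 24.9, and 28.9 in KD replicates 1 to 4. The mRNA of *Supt16*, the other subunit, had 319 ± 22.0 in control and 504 ± 20.2 in KD (SD, n = 4). Under quantile normalisation its log2 fold change was 0.03 (adjusted p = 0.468 from limma). RNA does not give the protein level, and by mass spectrometry the authors found SUPT16 depleted along with SSRP1. Stem cell markers were present in all libraries, with a summed signal of 8 markers of 1183 to 1264 in control and 3031 to 3189 in KD, and 6 of them were called higher (log2 fold change above 1, adjusted p below 0.01; 8.07% of all genes). Markers of other cell types were called lower for 4 of 5 fibroblast, 3 of 5 primitive endoderm, 1 of 3 neural progenitor, and 2 of 4 trophectoderm and epithelium genes with a value (20.6% of all genes). Fibroblast markers (5) summed to 50.0 to 63.7 in control and 13.1 to 14.9 in KD, and primitive endoderm markers (5) to 61.5 to 90.2 and 26.6 to 31.0. Of the neural progenitor markers, 3 of 5 had a value (*Pax3* and *Neurog2* did not) and summed to 50.0 to 62.6 in control and 36.7 to 38.1 in KD. Of the trophectoderm and epithelium markers, 4 of 5 had a value (*Elf5* did not), with sums of 924 to 1259 and 725 to 771. These sums moved together with the results below, and their part in them was not tested. In bulk RNA, fewer cells of a type and less RNA per cell cannot be told apart.

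All 10 genes had a higher library-size signal in the KD libraries than in the control libraries. Every KD library lay above every control library for each gene, which was so for 35.8% of all genes. The rises were moderate, from 1.33-fold for *Mcm4* to 1.97-fold for *Cdc6*. With limma on log2(signal + 0.5) and Benjamini-Hochberg adjustment over all genes, 10 of 10 were higher at an adjusted p below 0.01, a rule that 35.4% of all genes passed in that direction. At the thresholds used to call a gene, which also ask for a log2 fold change above 1, 0 of 10 were called, against 8.07% of all genes called higher. All 10 had an unadjusted and an adjusted p below 0.01 in limma, edgeR, and DESeq2 alike. Where a gene was not called, the fold change threshold alone kept it from being called. DESeq2 called 1 of them, *Cdc6*, and edgeR called 0. In either direction, DESeq2 called 4762 and edgeR 4711 of the 15384 genes.

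The median log2 fold change of the 10 genes was 0.84, and that of all genes was -0.03. These genes are well expressed, and the median also differed with the level of expression. Among the 2715 genes whose mean control signal lay within the range of the 10 genes (70.7 to 541), the median log2 fold change was 0.37 and 63.5% were higher at an adjusted p below 0.01.

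**Figure D1:**
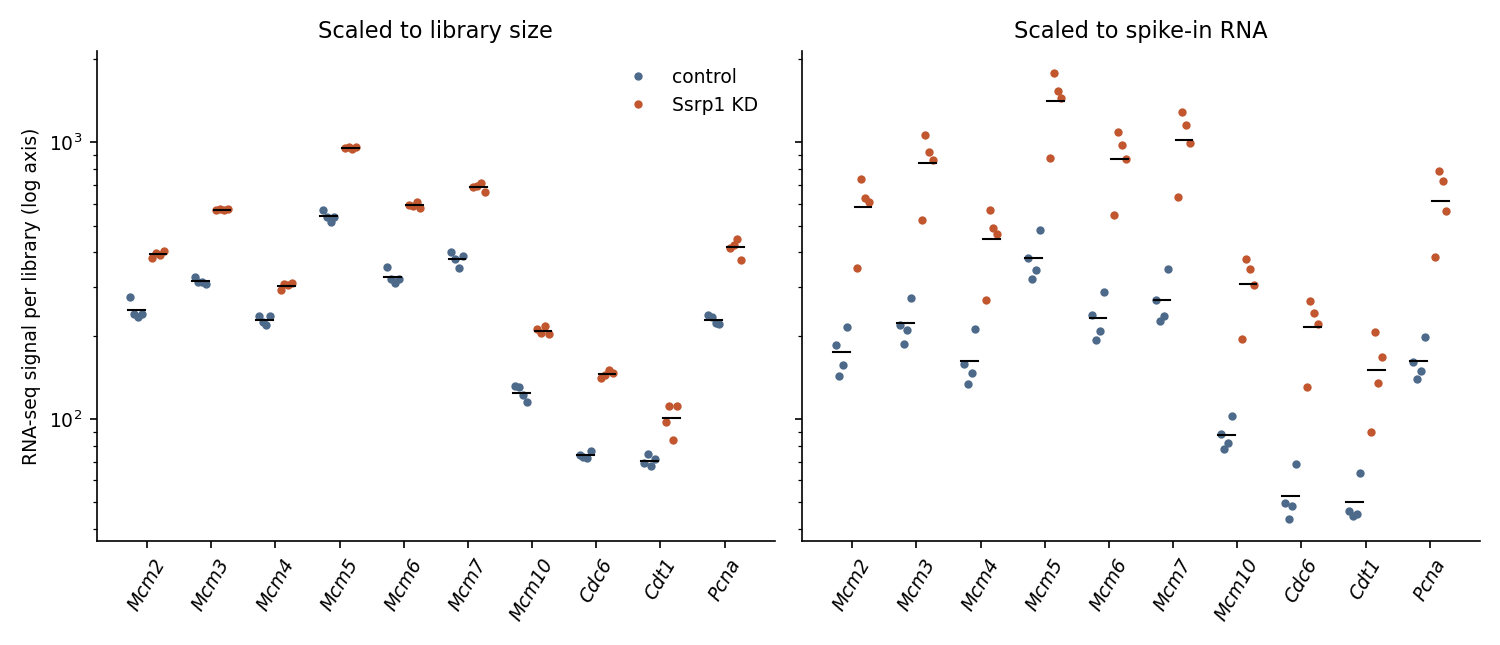
The signal of each gene is plotted on a log axis for the 4 control (blue) and 4 KD (orange) libraries, scaled to library size on the left and to spike-in RNA on the right, with bars at the means. In the library-size scaling the KD points of each gene form a tight group above the control points, and in the spike-in scaling 1 KD library, replicate 1, lies well below the other KD libraries for every gene.

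*Cdc6* and *Cdt1* encode the loading factors, which bring the MCM ring to the origin recognition complex. *Cdc6* (chromosome 11, 98907709 to 98923942, mm10) had library-size signals of 74.1, 72.8, 72.1, and 76.9 in control replicates 1 to 4 and of 141, 144, 150.0, and 147 in KD replicates 1 to 4. The KD values lay near 2 times the control values, and the spread within each group was small. The log2 fold change was 0.97 (standard error, SE, 0.057, adjusted p = 1.18e-14 from limma). It was the highest of the 10 genes and lay just short of the fold change threshold. *Cdt1* (chromosome 8, 122568015 to 122573130) had signals of 69.1, 74.5, 67.6, and 71.4 in control and of 97.7, 111, 83.8, and 111 in KD. It was the most variable of the 10 genes among the KD libraries, with a mean of 101 ± 13.2 against 70.7 ± 3.00 in control (SD, n = 4 each). Its log2 fold change was 0.50 (SE 0.075, adjusted p = 8.07e-07 from limma).

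The log2 fold changes of the 6 genes of the helicase ring ran from 0.41 to 0.86. *Mcm3* (chromosome 1, 20802966 to 20820312) had signals of 326, 313, 314, and 307 in control and of 569, 573, 569.5, and 573 in KD. *Mcm6* (chromosome 1, 128331575 to 128359705) had signals of 355, 321, 311, and 321 in control and of 592, 589, 608, and 582 in KD. *Mcm7* (chromosome 5, 138164583 to 138172111) had signals of 401, 378, 350.5, and 389.9 in control and of 690.3, 694, 715, and 664 in KD. These 3 genes, each a different subunit of the ring, rose by the same log2 fold change of 0.86, with SEs of 0.052, 0.056, and 0.057. *Mcm5* (chromosome 8, 75109468 to 75128439) had the most signal of the 10, with 571, 538, 515, and 539.7 in control and 957, 963, 949, and 960.2 in KD, a log2 fold change of 0.82 (SE 0.056). MCM5 forms, with MCM2, the place where the ring opens.

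*Mcm2* and *Mcm4* had the lowest fold changes of the ring. *Mcm2* (chromosome 6, 88883474 to 88898780), whose protein also binds histones H3 and H4, had signals of 275, 239, 234, and 240.3 in control and of 382, 397, 391, and 405 in KD. Its log2 fold change was 0.67 (SE 0.057, adjusted p = 2.97e-11 from limma). *Mcm4* (chromosome 16, 15623897 to 15637400) had signals of 235, 223, 218, and 236 in control and of 292, 307, 305, and 309.7 in KD. The groups of *Mcm4* did not overlap, but the log2 fold change of 0.41 (SE 0.053, adjusted p = 8.87e-08 from limma) was the lowest of the 10 and close to the 0.37 of genes with a like signal.

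The remaining genes act after licensing. *Mcm10* (chromosome 2, 4990724 to 5012791), which is needed to activate the helicase and is not part of the ring, had signals of 131, 130.5, 122, and 115 in control and of 211, 204, 216, and 203 in KD. Its log2 fold change was 0.74 (SE 0.057, adjusted p = 3.89e-12 from limma). *Pcna* (chromosome 2, 132249286 to 132253180) had signals of 238, 233, 223, and 221 in control and of 417, 426, 448, and 376 in KD, a log2 fold change of 0.86 (SE 0.058). The annotation also holds the pseudogenes *Pcna-ps1* and *Pcna-ps2*, which share sequence with *Pcna*, so its value is less certain than the others.

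The size of these rises depended on the scaling. Scaled to spike-in RNA, 10 of 10 genes were called higher, with log2 fold changes of 1.43 (*Mcm4*) to 1.99 (*Cdc6*), but 48.1% of all genes were then called higher and the median of all genes moved to 0.95. Relative to that median, the 10 genes lay 0.91 higher by their own median, close to the 0.88 found with the library-size signal. Both scalings multiply the same reads by 1 factor per library, so this gap could hardly differ between them and is no separate result. The spike-in signals were far more spread. *Mcm5* had 384, 322, 345, and 483 in control and 881, 1783, 1534, and 1444 in KD, and the standard error of its log2 fold change was 0.29 against 0.056 in the library-size scaling. KD replicate 1 was the lowest KD library for each of the 10 genes, which share 1 factor in that library. Without it, 10 of 10 were still called higher and their median log2 fold change was 2.08, against 1.16 for all genes.

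Quantile normalisation, which gives each library the same distribution of values, took most of the rise away. The median log2 fold change of the 10 genes was then 0.19, against 0.05 for all genes and -0.07 for the 2715 genes of like signal. At an adjusted p below 0.01, 6 of 10 remained higher, against 33.7% of all genes. These were *Cdc6* (0.61), *Mcm10* (0.29), *Pcna* (0.26), *Mcm3* (0.21), *Mcm6* (0.21), and *Mcm7* (0.18), as log2 fold changes. *Mcm4* was lower (-0.17, adjusted p = 9.09e-04 from limma), as were 29.2% of all genes. *Mcm2* (0.08, adjusted p = 0.0761), *Mcm5* (-0.03, adjusted p = 0.503), and *Cdt1* (0.17, adjusted p = 0.0543) did not pass in limma. *Cdc6* was thus the highest and *Mcm4* the lowest of the 10 under both quantile normalisation and library-size scaling. The same order under spike-in scaling is no separate result, as both scalings multiply the same reads by 1 factor per library.

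**Figure D2:**
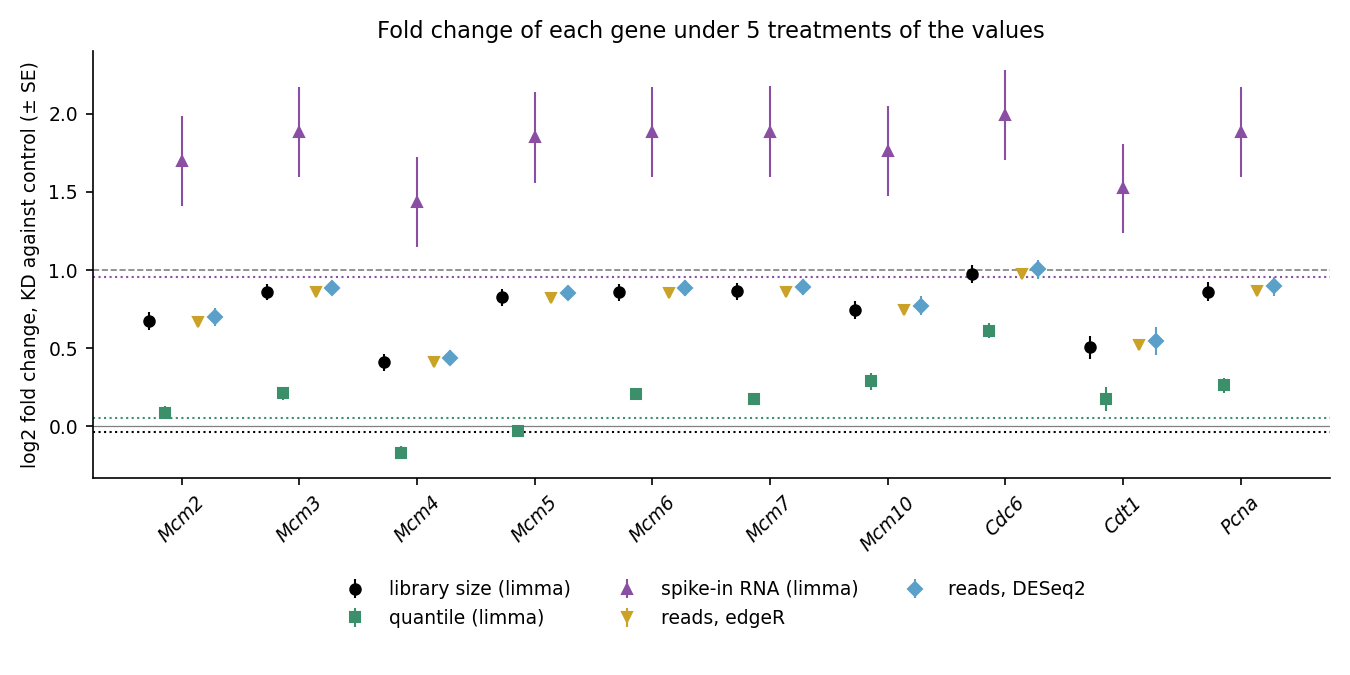
The log2 fold change of KD against control is plotted for each gene with its standard error (none is given for edgeR) for limma on 3 scalings and for edgeR and DESeq2 on recovered reads. The dotted lines are the medians of all genes in the 3 limma fits, in matching colours, and the dashed line is the fold change threshold of 1. Library-size, edgeR, and DESeq2 values lie together, the spike-in values lie higher with long error bars, and the quantile values lie lowest, with *Mcm4* and *Mcm5* below 0.

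As the ring holds 1 copy of each subunit, the balance between the 6 mRNAs was examined in a way that no single factor for a library can change. The signal was divided by the exon length, and the share of each gene in the sum over *Mcm2* to *Mcm7* was taken in each library. This comparison was chosen after the data were seen. *Mcm4* had shares of 9.14%, 9.33%, 9.45%, and 9.74% in control replicates 1 to 4 and of 6.98%, 7.27%, 7.17%, and 7.42% in KD replicates 1 to 4. All KD libraries were below all control libraries, and the mean share was 9.42% ± 0.252 in control and 7.21% ± 0.182 in KD (SD, n = 4 each). *Mcm2* also took a smaller share, 9.98% ± 0.262 against 10.8% ± 0.375, without overlap of the groups. *Mcm6* took a larger one, 17.4% ± 0.228 against 16.7% ± 0.269, again without overlap. For these 3 genes an exact two-sided permutation test gave p = 0.0286, the smallest that 4 against 4 libraries allow, and p = 0.0571 after adjustment over the 6 genes. *Mcm7* (24.6% in KD against 23.5%), *Mcm5* (23.9% against 23.4%), and *Mcm3* (16.9% against 16.2%) had groups that overlapped, with exact permutation p-values of 0.0571, 0.0571, and 0.0857. No share passed 0.05 after the adjustment. As the shares of the 6 genes add up to the whole, smaller shares of *Mcm4* and *Mcm2* make those of the others larger. The larger share of *Mcm6* is therefore no separate result.

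**Figure D3:**
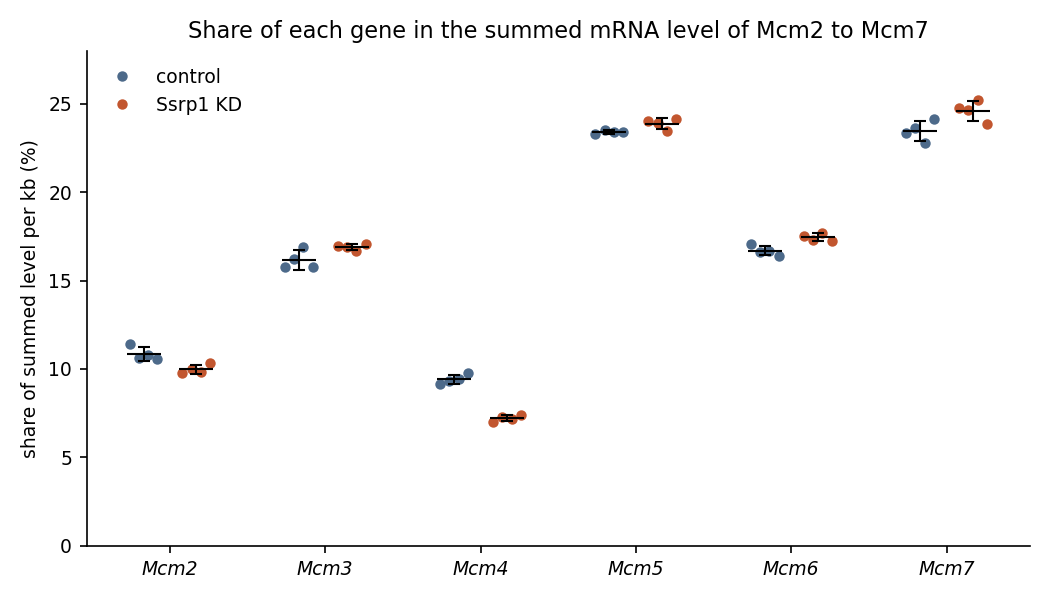
The share of each gene in the summed signal per kb of *Mcm2* to *Mcm7* is plotted in percent for each control (blue) and KD (orange) library, with the mean and SD in black. The mean share of *Mcm4* goes from 9.42% to 7.21% without overlap of the points, and the other mean shares move by 1.13 percentage points or less.

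Levels between genes were compared as library-size signal per kb of exons. In control cells *Pcna* had the highest level, 182 ± 6.52 per kb (SD, n = 4), followed by *Mcm7* (159 ± 9.11) and *Mcm5* (158 ± 6.73), whose ranges overlapped. *Mcm6* (113 ± 6.57) and *Mcm3* (109 ± 2.87) came next and also overlapped. *Mcm2* (73.3 ± 5.64) and *Mcm4* (63.6 ± 2.46) were lower and did not overlap with each other. *Mcm10* (35.7 ± 2.22) and *Cdt1* (32.3 ± 1.37) overlapped, and *Cdc6* had the lowest level of the 10, 15.7 ± 0.446. All 6 helicase subunits thus had a higher level per kb than both loading factors. The order of the means was the same in KD, from *Pcna* (331 ± 23.9) to *Cdc6* (31.0 ± 0.804), and *Mcm7* (288 ± 8.64) and *Mcm5* (280 ± 1.71) still overlapped.

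The other genes of DNA replication and the cell cycle were described in 7 lists. Over all genes, 35.4% were higher and 37.3% lower at an adjusted p below 0.01. Over the 2715 genes with a signal like that of the 10 genes, the shares were 63.5% and 19.2%. Some genes of the lists, such as *Gmnn* and *Dtl*, had a control signal below that range (from 70.7), so the 2715 genes are only a rough background for the lists. With the fold change threshold, 8.07% of all genes were called higher and 20.6% lower. Of the 6 subunits of the origin recognition complex, to which CDC6 and CDT1 bind, 5 were higher at an adjusted p below 0.01 and 0 lower, with a median log2 fold change of 0.55, and 0 were called. Of 14 genes of licensing control, 8 were higher and 3 lower, a share higher that lay near that of the 2715 genes. The median was 0.35, and 2 were called. These were *Gmnn*, whose protein geminin binds CDT1 and blocks new licensing, with 47.4 ± 3.56 in control and 123 ± 8.50 in KD (SD, n = 4), and *Dtl*, the substrate receptor of the ubiquitin ligase that destroys CDT1 on PCNA, with 50.3 ± 2.43 and 130 ± 3.83. Both act against CDT1, and their log2 fold changes were 1.37 and 1.36, against 0.50 for *Cdt1* itself, a difference that was not tested.

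The next lists hold the genes that turn the loaded ring into a moving fork. Of 14 genes of helicase activation, 13 were higher at an adjusted p below 0.01 and 5 were called, with a median of 0.60. *Gins4* (log2 fold change 1.49) and *Gins2* (1.38), subunits of the GINS complex of the active helicase, and *Wdhd1* (1.14), which links it to DNA polymerase alpha, had the lowest adjusted p. Of 28 measured replication fork genes, 25 were higher and 1 lower, with a median of 0.83, and 8 were called higher. *Prim2*, a primase subunit, had a log2 fold change of 1.45, *Rnaseh2a* of 1.23, and *Rpa2*, a subunit of the single-strand binding protein, of 1.20. The gene called lower was *Pold4*, a small subunit of DNA polymerase delta, with only 3.28 ± 1.73 in control and 1.02 ± 0.158 in KD (SD, n = 4). It did not pass an adjusted p of 0.01 with spike-in scaling (log2 fold change -0.42, adjusted p = 0.240 from limma) or quantile normalisation (-0.16, adjusted p = 0.587), and with a pseudocount of 2 (-0.75) or without control replicate 3 (-0.93) it was short of the fold change threshold.

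All 8 genes of deoxynucleotide supply and repair were higher at an adjusted p below 0.01, with a median of 0.79. *Ung*, which removes uracil from DNA, had a log2 fold change of 1.58, and *Tk1*, thymidine kinase, of 1.14. In the mitosis list 15 of 16 were higher, with a median of 0.76, and *Bub1* (1.41) and *Nusap1* (1.36) were called. Of 13 E2F and pocket protein genes, 5 were higher and 5 lower, with a median of 0.08, so both shares lay near those of all genes. Under quantile normalisation the medians were 0.14 for origin recognition, -0.02 for licensing control, 0.28 for helicase activation, 0.44 for the fork, 0.37 for deoxynucleotide supply, 0.21 for mitosis, and 0.09 for the E2F list. In the licensing control list 6 genes were then higher and 5 lower at an adjusted p below 0.01, and in the mitosis list 10 were higher and 3 lower.

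The likeness of other genes to the ring was measured as Pearson's r, over the 8 libraries, between the log2 signal of a gene and the mean of the standardised log2 signals of *Mcm2* to *Mcm7*. The 5 genes with the highest r were *Akirin1*, *Eef2*, *Psmd13*, *Nedd4*, and *Hist2h2aa2* (0.999 each). They encode a nuclear protein, a translation elongation factor, a proteasome subunit, a ubiquitin ligase, and a histone H2A. With 2 groups set apart from each other, any gene that was steadily higher in KD reaches a high r, and 3317 genes outside the list had an r above 0.95. The 10 genes themselves had an r of 0.89 to 1.00. As *Mcm2* to *Mcm7* make up the mean they were compared with, their r is partly fixed in advance.

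At 3 of the 10 loci another gene starts within 1000 bp on the opposite strand, so that both share 1 promoter region. *Mcm4* starts 44 bp from *Prkdc*, *Mcm7* 51 bp from *Ap4m1*, and *Pcna* 158 bp from *Cds2*. *Prkdc*, the catalytic subunit of a DNA repair kinase, had signals of 117, 107, 102, and 116 in control and 125, 117, 127, and 124 in KD, with a log2 fold change of 0.16 (SE 0.060, adjusted p = 0.0161 from limma). *Ap4m1*, an adaptor subunit of vesicle transport, had 20.7 ± 1.56 in control and 25.0 ± 0.590 in KD (SD, n = 4), with a log2 fold change of 0.27 (SE 0.092, adjusted p = 0.0101 from limma). *Cds2*, which makes CDP-diacylglycerol, rose by a log2 fold change of 0.54 (SE 0.062, adjusted p = 1.06e-08 from limma). In the library-size scaling each neighbour had a lower fold change than the gene across from it (0.41, 0.86, and 0.86). Under quantile normalisation *Ap4m1* (0.31) lay above *Mcm7* (0.18), while *Prkdc* (-0.21) and *Cds2* (0.14) lay below *Mcm4* (-0.17) and *Pcna* (0.26). The difference within a pair was not tested.

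RefSeq promoter windows of build GRCm38.p6, from 250 bases before to 50 bases after a start, were at hand for 9 of the 10 genes, all except *Mcm4*, with a pair of windows for *Mcm7*. E2F words (TTTCCCGC, TTTCGCGC, TTTGCCGC, or TTTGGCGC, on either strand) were found for 6 of the 9 genes, against 2.26% of 32851 mouse promoter windows. CCAAT, the word bound by NF-Y, was found for 7 of 9, against 37.4% of windows. TTTGAA, the core of the cell cycle homology region of genes of later phases, was found for 1 of 9, *Mcm2*, against 17.9%. A match is only a match of letters. In the lines below, written along the strand of the gene, capitals mark the E2F words, and GCGGGAAA is a word read on the other strand.

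Mcm6, chr1:128359795-128359824, minus strand: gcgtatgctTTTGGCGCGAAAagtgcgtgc
Mcm5, chr8:75109347-75109376, plus strand: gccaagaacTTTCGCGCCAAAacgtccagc
Mcm7, chr5:138172030-138172059, minus strand: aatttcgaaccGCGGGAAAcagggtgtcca
Cdc6, chr11:98908002-98908031, plus strand: gccggtggagaGCGGGAAAtcgcctggggt
Mcm3, chr1:20820275-20820304, minus strand: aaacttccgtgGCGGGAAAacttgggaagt
Cdt1, chr8:122568036-122568064, plus strand: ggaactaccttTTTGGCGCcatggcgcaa

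The 12 capitals of *Mcm6* and *Mcm5* each hold 2 words on opposite strands that overlap, so they count as 1 place. They begin 110 and 153 bases before the start. *Mcm3*, *Mcm6*, and *Mcm7* each hold 1 further word, and that of *Mcm7* shares its last base with a CCAAT. The word of *Mcm7* shown begins 165 and that of *Cdc6* 138 bases before the start used for the window. Those of *Mcm3* and *Cdt1* begin 19 and 32 bases after it. Both *Mcm7* and *Cdc6* have 3 annotated starts, and their words shown lie inside the gene, after its first start (138172111 and 98907709). No window was placed at those first starts. The gene with the highest fold change (*Cdc6*) and the one with the most signal (*Mcm5*) both hold a word, whereas *Mcm2*, *Mcm10*, and *Pcna* hold none in the windows searched. Fold changes of genes with a word ran from 0.50 to 0.97 and those of genes without one from 0.67 to 0.86, so the ranges overlapped. The sequence before the start of *Mcm6* and of *Mcm2* is given whole, as one with E2F words and one without, with CCAAT on either strand also in capitals (ATTGG is CCAAT on the other strand).

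Mcm6, chr1:128359706-128359955, minus strand: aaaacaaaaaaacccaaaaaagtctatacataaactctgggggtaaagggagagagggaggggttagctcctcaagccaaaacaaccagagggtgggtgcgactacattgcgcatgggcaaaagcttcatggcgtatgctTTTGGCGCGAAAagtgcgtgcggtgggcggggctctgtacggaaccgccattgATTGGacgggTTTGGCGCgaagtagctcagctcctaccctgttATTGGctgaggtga
Mcm2, chr6:88898781-88899030, minus strand: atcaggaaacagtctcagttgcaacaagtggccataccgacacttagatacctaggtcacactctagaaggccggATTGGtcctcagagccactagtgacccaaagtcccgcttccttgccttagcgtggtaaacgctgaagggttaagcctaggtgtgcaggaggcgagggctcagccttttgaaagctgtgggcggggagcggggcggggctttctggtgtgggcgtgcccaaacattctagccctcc

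Occupancy of FACT at these genes was read from the peak lists, which were made from both ChIP-seq replicates of a subunit together and hold no heights. By the nearest-gene assignment of the authors, 6 of 10 genes carried a SSRP1 peak, against 37.0% of the 14949 genes that could be matched to the annotation. These were *Mcm5*, *Mcm6*, *Mcm7*, *Cdc6*, *Cdt1*, and *Pcna*. Within 1000 bp of a TSS, 3 of 10 had one, *Mcm5*, *Mcm6*, and *Mcm7*, against 26.8% of genes. Among the 2715 genes of like signal the shares were 51.6% and 40.4%, so the counts of these 10 genes lay near the background.

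SUPT16 peaks were assigned to 2 of 10, *Mcm7* and *Pcna*, against 19.2% of genes and 31.6% of the genes of like signal. Within 1000 bp of a TSS only *Mcm7* had one (16% of genes and 26.3% of those of like signal). *Mcm2*, *Mcm3*, *Mcm4*, and *Mcm10* had no peak of either subunit in any of the definitions tried. The lists hold regions past a threshold, and an absent peak is not a measured absence of FACT.

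*Mcm7* was the only one of the 10 genes with peaks of both subunits over a TSS. Its SSRP1 peak (chr5:138170789-138172454, 1666 bp) covers a TSS, exons, and coding sequence, reaches over the start of *Ap4m1*, and is assigned to both genes. A SUPT16 peak (chr5:138171041-138171670, 630 bp) lies inside it and covers a TSS, and a second one (350 bp) lies near the end of the gene over exonic and intronic sequence. At *Mcm5* the SSRP1 peak (chr8:75108475-75110238, 1764 bp) covers the TSS and holds the E2F words shown above. At *Mcm6* the SSRP1 peak (chr1:128359127-128359616, 490 bp) begins 89 bp inside the gene.

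The other peaks lay away from the starts. The SSRP1 peak of *Cdt1* (294 bp) ends 2747 bp before its TSS, and *Cdc6* has one (294 bp) in an intron 10404 bp after a TSS and another (294 bp) beyond the gene, 19420 bp after a TSS. *Mcm5* is assigned 2 further SSRP1 peaks (686 and 294 bp), which lie beyond the gene, 20918 and 61294 bp after a TSS. *Pcna* has no peak within 1000 bp of its TSS. A SSRP1 peak of 294 bp lies 4485 bp before it, and a SUPT16 peak of 1050 bp lies 4630 bp after it, beyond the end of the gene and next to *5730494N06Rik*. A second SSRP1 peak (490 bp), assigned to that neighbour, lies within the SUPT16 peak. Fold changes and peaks were set side by side. *Mcm3*, without a peak, and *Mcm6* and *Mcm7*, with a peak at the start, had the same log2 fold change of 0.86, and the gene with the highest (*Cdc6*) and the one with the lowest (*Mcm4*) had none at the start.

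**Figure D4:**
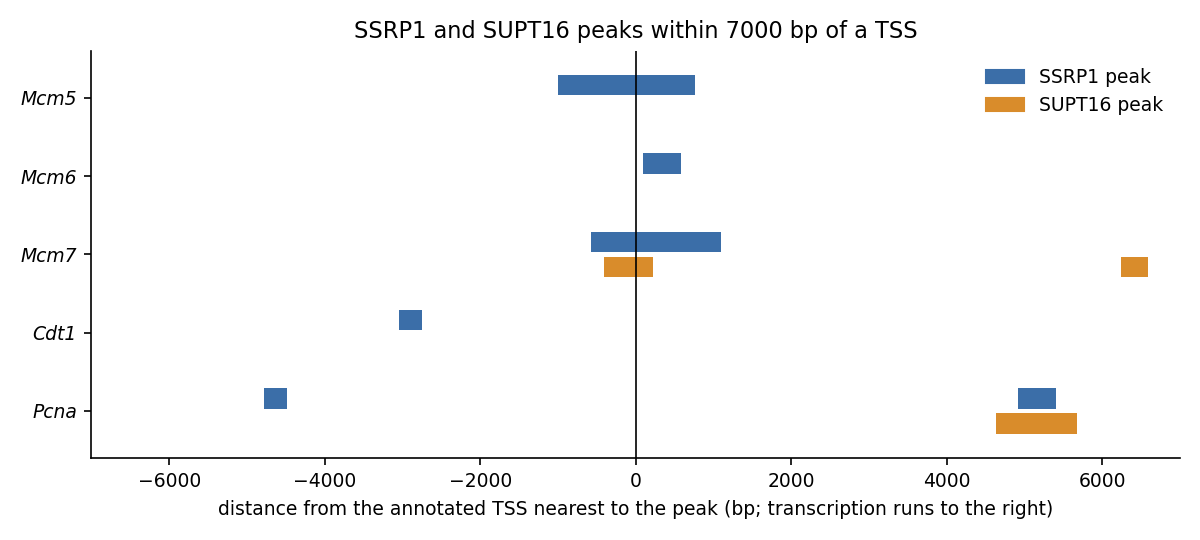
SSRP1 (blue) and SUPT16 (orange) peaks are drawn as bars by their distance in bp from the annotated TSS nearest to each peak, with transcription to the right, for the 5 genes with a peak within 7000 bp of a TSS. *Mcm5* and *Mcm7* have a peak over the TSS, that of *Mcm6* begins 89 bp after it, and those of *Cdt1* and *Pcna* lie at least 2747 bp away.

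RNA attached to chromatin is rich in transcripts that are still being made. The 2 chromatin RNA libraries held 3441643 and 3393923 counts, of which 5.56% and 9.35% fell on protein-coding genes and most of the rest on snoRNA genes (63.8% and 60.7%). All 10 genes had at least 10 counts in both libraries, which was so for 4723 of 27179 genes. Counts ran from 20 in both libraries for *Cdc6* to 80 and 152 for *Mcm5*. In CPM (counts scaled to the library total) and kb of exons, *Mcm5* had 6.79 (95% Poisson interval 5.39 to 8.45) and 13.1 (11.1 to 15.3), and *Cdc6* had 1.24 (0.755 to 1.91) and 1.25 (0.766 to 1.94). The intervals cover counting error only.

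*Mcm7* had 5.46 and 10.3, *Pcna* 5.30 and 10.3, and *Mcm3* 5.64 and 7.35 CPM per kb. Ranked among the 4723 genes, *Mcm5* stood at the 89.5th and 91.3rd percentile, *Mcm7* at the 86.4th and 88.6th, and *Cdc6* at the 31.0th and 12.7th. The gene of the 10 with the lowest control signal per kb of exons was thus also lowest per kb on chromatin. The median of the 10 genes was at percentile 81.2 in library 1 and 81.0 in library 2. The second library held more counts of most of these genes, by a median factor of 1.81, close to the 1.66 of protein-coding genes. Across the 10 genes, which are not independent, the order of chromatin RNA per kb was like that of the control signal per kb (Spearman's rho 0.903, with the exon length shared by both measures).

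**Figure D5:**
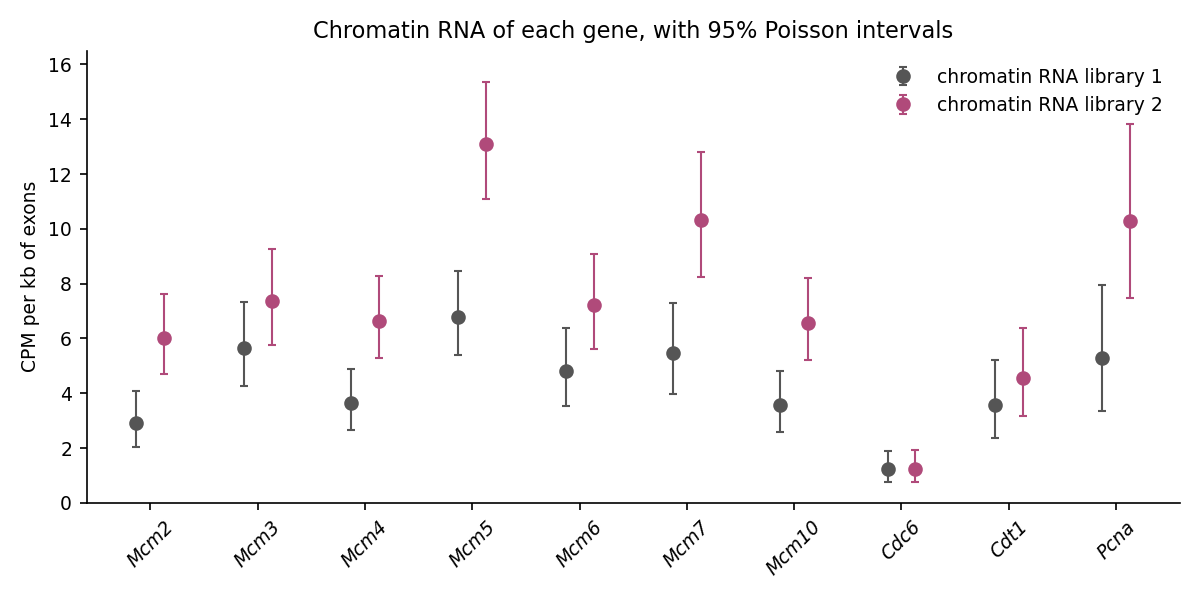
Chromatin RNA of each gene is plotted as CPM per kb of exons in library 1 (grey) and library 2 (purple), with 95% Poisson intervals. *Mcm5*, *Mcm7*, and *Pcna* have the highest levels, *Cdc6* the lowest, and library 2 lies above library 1 for each gene, by the least for *Cdc6* (1.24 and 1.25).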

How the data were processed

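For RNA-seq, the authors used STAR (mm10) and featureCounts and deposited for each library a signal scaled to library size and one scaled to spike-in RNA. Chromatin RNA was deposited as a raw count per gene (aligner not given in the sources used here). For the peak lists the authors ran PePr on both replicates and ChIP-Enrich for the nearest gene. Starts were read as counted from 0 and are given from 1. The authors' deposited comparison tables (fold changes, p-values, and exon usage) were not used.

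All values were whole reads times 1 factor per library within 0.1 read (100%). log2(library-size signal + 0.5) of 15384 genes was tested with limma 3.58.1 (trend) and called at a log2 fold change beyond 1 in size with adjusted p under 0.01. Fold changes on this scale understate the change of low genes. Alternatives were DESeq2 1.42.0 and edgeR 4.0.16 on the reads, scalings (spike-in, TMM, size factors, quantile), pseudocounts of 0.1 and 2, a mean of at least 5, leaving out 1 library at a time, and a replicate block. Simulated sets held 200 changed genes, and each tool recovered at least 199 with 0 false calls. In the data far more genes passed an adjusted p below 0.01 in limma, 5447 higher and 5745 lower. The recovery in the simulated sets therefore does not show how the tools perform on these data, and it does not decide between the scalings.

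Members and lists were chosen with earlier results of these data known. Named genes were the 10 members, *Ssrp1*, *Supt16*, head-to-head neighbours within 1000 bp, the 3 lowest adjusted p per direction among called genes of each list, and the 5 genes most like the ring. Chromatin counts were scaled to CPM and kb. R 4.3.3, Python 3.11.15, pandas 2.3.3, and scipy 1.17.1 were used.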

Additional observations from a re-analysis of the deposited data

Results flagged for a closer look

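Within groups of 4 libraries, the gap of the highest or lowest library to its neighbour was set against the range of the group (Dixon's test) for the 10 genes in both scalings, 40 groups in all. Chance passes about 1 in 20 such groups, and 2 passed. The library-size signal of *Mcm2* in control replicate 1 (275) lay above the other controls, with a ratio of 0.842. Without that library the log2 fold change of *Mcm2* was 0.73. The spike-in signal of *Cdt1* in control replicate 4 (63.9) lay above the other controls, with a ratio of 0.903.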

How the results depend on the processing

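Of 190 log2 fold changes of the 10 genes under the alternatives, 186 kept their direction and their side of an adjusted p of 0.01. Under quantile normalisation *Mcm4* (-0.17) and *Mcm5* (-0.027) reversed, and *Mcm2* and *Cdt1* no longer passed. *Prkdc* (-0.21) and *Nedd4* (-0.12) reversed as well, and *Supt16* was no longer past it (0.03). With spike-in scaling 10 of the 10 genes and 8476 of all genes were called, and without KD replicate 1 in that scaling, added after seeing the data, 10 and 9441. With size factors and with DESeq2, 1 was called, beside 4443 and 4762 of all genes. At the adjusted p alone, 6 remained higher under quantile normalisation. The cause was not tested.

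With each library left out in turn, 0 of 10 were called, 10 of 10 passed the adjusted p, and 4254 to 4635 of all genes were called. The replicate numbers did not pair the libraries (correlations of same-numbered libraries -0.057 to 0.0175), and with a replicate block 0 of the 10 and 4405 of all genes were called. SSRP1 peaks were found for 3 genes within 1000 bp of a TSS and for 2 with peaks of at least 500 bp, and SUPT16 peaks for 1 within 1000 bp and 1 overlapping the gene. The median percentile in chromatin RNA, 81.1, became 79.8 without division by length and 92.5 with at least 1 count, where 1 of the libraries alone gave 81.0 to 81.2. Depth limits the low genes of the control libraries and the chromatin counts.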
